A study of Mus musculus with 8 samples.

Results

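This account covers 8 genes for transcription factors that act late in the maturation of natural killer (NK) cells: Zeb2, Zeb1, Prdm1, Zfp683, Klf2, Foxo1, Foxo3 and Zbtb32. They were chosen by name. Peaks of open chromatin were assigned to a gene when the nearest end of any protein-coding gene, within 50 kb, belonged to it. Under that rule 7 of the 8 genes had peaks, and 538 of the 364277 peaks in the 8 lists were theirs. Merging overlapping peaks across libraries and keeping regions called in at least 2 of them gave 72 regions at these genes, of 50044 in all. Zfp683 took no peak, because the RefSeq gene table lists it as a pseudogene.

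The assay was ATAC-seq: a transposase cuts chromatin where it is open and tags the pieces with sequencing adapters. The cells were splenic NK cells (CD49b+, CD3e-) sorted from unchallenged mice, with 200000 cells per mouse and 1 library per mouse. The MUT group was 4 mice with the HSF1-S303/7A genotype, in which serines 303 and 307 of the heat shock factor HSF1 are replaced by alanine (replicates 26, 27, 28 and 29). The WT group was 4 mice wild-type for HSF1 (replicates 4, 5, 6 and 7). HSF1 is the main activator of heat shock genes, phosphorylation of these serines is known to restrain it, and the submitters call the mutant mice HSF1-enhanced. Values per library are given in the order of these replicate numbers. The labels give no strain, sex, age or litter, and do not say in which cells the mutation is present, so any other difference between the 2 sets of mice or their handling cannot be told apart from the genotype.

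NK cells develop from immature cells of the bone marrow and complete their maturation through a late stage marked by high CD11b, KLRG1 and S1P receptor 5. ZEB2, a zinc finger repressor, works downstream of T-bet to drive that last step, and ZEB1 is its close relative. BLIMP1 (the product of Prdm1) and HOBIT (Zfp683) are related zinc finger repressors of terminal lymphocyte programs, BLIMP1 being required for full NK maturation. KLF2 keeps lymphocytes quiescent and directs their trafficking, in part through S1P receptor 1. FOXO1 and FOXO3 are forkhead factors that AKT excludes from the nucleus, and both restrain late NK maturation. ZBTB32 is a BTB zinc finger protein needed for NK cells to proliferate during viral infection.

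The MUT lists held 44827, 49627, 46623 and 44333 peaks, and the WT lists 45004, 46102, 45066 and 42695. Read depth is unknown, because the lists hold no counts, so a peak missing from a list may be closed chromatin or an open site that was missed. Of 10 NK marker genes, 9 had a region at a gene end in all 8 libraries. So did 5 of 8 T cell markers (Cd3e, Cd3d, Cd3g, Cd5 and Bcl11b), 3 of 8 myeloid and dendritic cell markers (Cd14, Flt3 and Itgax), 2 of 4 markers of type 1 innate lymphoid cells (Itga1 and Cd200r1), 1 of 6 basophil and mast cell markers (Gata2), 1 of 6 erythroid and platelet markers (Itga2b) and 0 of 8 B cell and plasma cell markers. Cd4, Cd8a and Cd8b1 of the T cell markers, Lyz2 and S100a8 of the myeloid markers, and Gata1, Hba-a1, Hbb-bt and Gp9 of the erythroid and platelet markers had no peak in any library. The peak length linked to 8 T cell markers summed to 7434 to 10305 bp in MUT libraries and 6148 to 7527 bp in WT libraries, and that of 8 B cell and plasma cell markers to 1947 to 3478 bp in MUT and 1654 to 2730 bp in WT libraries. The genotypes overlapped in both. They also overlapped in the summed lengths of 3 further lists: 4818 to 6331 bp in MUT and 4912 to 5813 bp in WT libraries for 8 myeloid and dendritic cell markers, 4422 to 5634 bp in MUT and 4367 to 4964 bp in WT for 6 of basophils and mast cells, and 3192 to 4203 bp in MUT and 3273 to 3772 bp in WT for 4 of type 1 innate lymphoid cells. The median log2 difference in scaled length, MUT minus WT, was 0.23 for T cell markers (5 of 8 genes tested). It was 0.38 for B cell and plasma cell markers (5 of 8), the value of Ebf1, which had 0, 0, 407 and 0 bp in WT libraries. It was 0.19 for myeloid and dendritic cell (6 of 8), 0.011 for basophil and mast cell (6 of 6) and -0.0071 for type 1 innate lymphoid cell markers (3 of 4). For erythroid and platelet markers it was -0.0296 (2 of 6), for NK markers -0.0446 (10 of 10) and over all genes tested -0.0193. No marker of the lists other than NK passed the length test given below. Of the NK markers 1 did, Klrb1c, which is described further below. Several of the 8 factors are also active in T and B cells, and the part of such cells in the values below was not tested. In bulk samples, fewer cells of a type and less accessible DNA per cell cannot be told apart.

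The promoters of the 5 factors whose annotated start lay under a region called in all 8 libraries are shown, because these sequences were called open in every mouse. Each is the stretch of 250 bases before the annotated start on the gene's own strand, 5′ to 3′, from RefSeq on build GRCm38.p6. Capitals mark the FOXO motif GTAAACA and the ZEB motif CACCTG, on either strand.
Prdm1, chr10:44458749-44458998, minus strand: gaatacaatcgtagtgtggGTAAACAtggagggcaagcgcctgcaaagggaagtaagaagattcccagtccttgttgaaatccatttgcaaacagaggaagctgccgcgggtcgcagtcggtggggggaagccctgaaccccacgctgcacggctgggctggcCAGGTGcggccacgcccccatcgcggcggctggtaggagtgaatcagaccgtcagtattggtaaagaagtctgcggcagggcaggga
Klf2, chr8:72318812-72319061, plus strand: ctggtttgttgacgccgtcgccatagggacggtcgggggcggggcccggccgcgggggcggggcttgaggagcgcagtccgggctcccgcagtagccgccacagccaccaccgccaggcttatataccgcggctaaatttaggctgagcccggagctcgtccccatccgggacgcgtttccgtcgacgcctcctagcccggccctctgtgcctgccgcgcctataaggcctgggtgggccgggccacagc
Foxo1, chr3:52268087-52268336, plus strand: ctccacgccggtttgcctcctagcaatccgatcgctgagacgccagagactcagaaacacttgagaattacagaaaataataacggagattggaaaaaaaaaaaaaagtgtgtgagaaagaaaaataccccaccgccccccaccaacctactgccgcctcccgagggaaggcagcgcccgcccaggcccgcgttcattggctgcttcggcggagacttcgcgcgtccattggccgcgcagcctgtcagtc
Foxo3, chr10:42276696-42276945, minus strand: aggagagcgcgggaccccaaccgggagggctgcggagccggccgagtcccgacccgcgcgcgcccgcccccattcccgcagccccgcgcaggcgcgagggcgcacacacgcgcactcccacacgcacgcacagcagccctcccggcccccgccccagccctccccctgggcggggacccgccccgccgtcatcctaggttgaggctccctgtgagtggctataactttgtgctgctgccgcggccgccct
Zeb2, inner start, chr2:45110278-45110527, minus strand: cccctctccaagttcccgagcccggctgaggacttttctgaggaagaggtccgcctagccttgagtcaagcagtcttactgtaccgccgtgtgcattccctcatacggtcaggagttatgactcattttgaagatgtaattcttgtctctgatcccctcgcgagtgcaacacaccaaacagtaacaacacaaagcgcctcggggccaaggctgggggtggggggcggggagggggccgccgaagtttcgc
A second Zeb2 window, before the outermost of its 4 annotated starts, is shown beside these because only 92 of its bases were covered, by a region called in 7 libraries.
Zeb2, outermost start, chr2:45117443-45117692, minus strand: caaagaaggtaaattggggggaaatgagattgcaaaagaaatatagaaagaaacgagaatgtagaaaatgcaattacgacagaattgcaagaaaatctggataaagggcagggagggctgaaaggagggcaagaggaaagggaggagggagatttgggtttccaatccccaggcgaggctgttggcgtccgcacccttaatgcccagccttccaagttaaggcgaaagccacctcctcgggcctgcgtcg

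The table of promoters held 10 windows for 6 of the factors, with none for Zeb1 or Zfp683. Of these, 5 lay wholly inside a region called in all 8 libraries, against 37.3% of 21262 windows of protein-coding genes. The 2 windows of Zbtb32 and the 2 remaining windows of Zeb2 had no region over them. The open promoters differed in base composition: that of Foxo3 was 76.4% G and C with 31 CG pairs and that of Klf2 71.2% with 29, whereas Prdm1 had 59.2% and 15, Zeb2 (inner start) 57.6% and 14, and Foxo1 56.0% and 20. The median over all windows was 55.6% with 10 CG pairs.

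On both strands, 5 motifs were searched for in the 10 windows. In the Prdm1 window GTAAACA stood at bases -231 to -225 from the start, and CACCTG stood at -87 to -82 on the other strand, printed above as CAGGTG. Of all windows 2.62% held GTAAACA and 16.9% held CACCTG. The same window held GAAGATTC at -194 to -187, a match to 2 facing units of the heat shock element, written GAANNTTC, which 6.17% of windows held. The inner Zeb2 window held another match, GAAGTTTC, at -10 to -3. The KLF motif CCACACCC, in 3.32% of windows, matched at -102 to -95 of the Zbtb32 window at chr7:30592943-30593192. None of the 5 motifs matched in the Klf2, Foxo1 and Foxo3 windows. The T-box motif AGGTGTGA (0.997% of windows) matched in none of the 10. A match is a string of letters and does not show a bound factor.

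Several of the factors had many regions, most of them away from the gene ends. Zeb2 had 18 regions, Prdm1 15, Foxo1 14, Foxo3 11, Zeb1 7, Klf2 6 and Zbtb32 1. The median over the 14092 genes with at least 1 region was 2, and 2.54% of all protein-coding genes had 10 or more, as 4 of the 8 factors did. No other gene end lay within 50 kb of Zeb2, Zeb1, Prdm1 or Foxo1, whereas 21 lay within 50 kb of Zbtb32. Nearness does not tell which gene a region controls. Within 1 kb of a gene end lay 6 of the 72 regions (8.33%), against 29.6% of the 41598 regions linked to any gene. Regions called in all 8 libraries made up 51 of the 72 (70.8%), against 70.3% of linked regions, a share near that of all linked regions.

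Each peak carries a score given by the authors, which was turned into a percentile within its own list. A percentile of 90 means that 90% of the peaks of that library scored at or below that peak, with ties averaged. The 6 gene-end regions of the factors had a median percentile of 55.6, against 70.0 for all gene-end regions, and the 66 other regions 42.2, against 36.9. Ends are those of the gene span, so the 66 include the regions over the Prdm1 start (94.5) and the inner Zeb2 start (27.5). All 5 of the factors' regions above the 90th percentile lay away from the gene ends as the table gives them, as did 1546 of the 3830 regions above it that were linked to any gene. Because the lists differ in length, percentiles describe where a peak stands in its own list and do not show a change between genotypes. The MUT and WT percentiles did not overlap at 4 of the 51 factor regions called in all 8 libraries (7.84%, against 12.8% of all such regions), with MUT higher at 2 and lower at 2. The table gives gene spans without exons, so whether a region inside a gene was exonic or intronic was not determined.

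**Figure D1:**
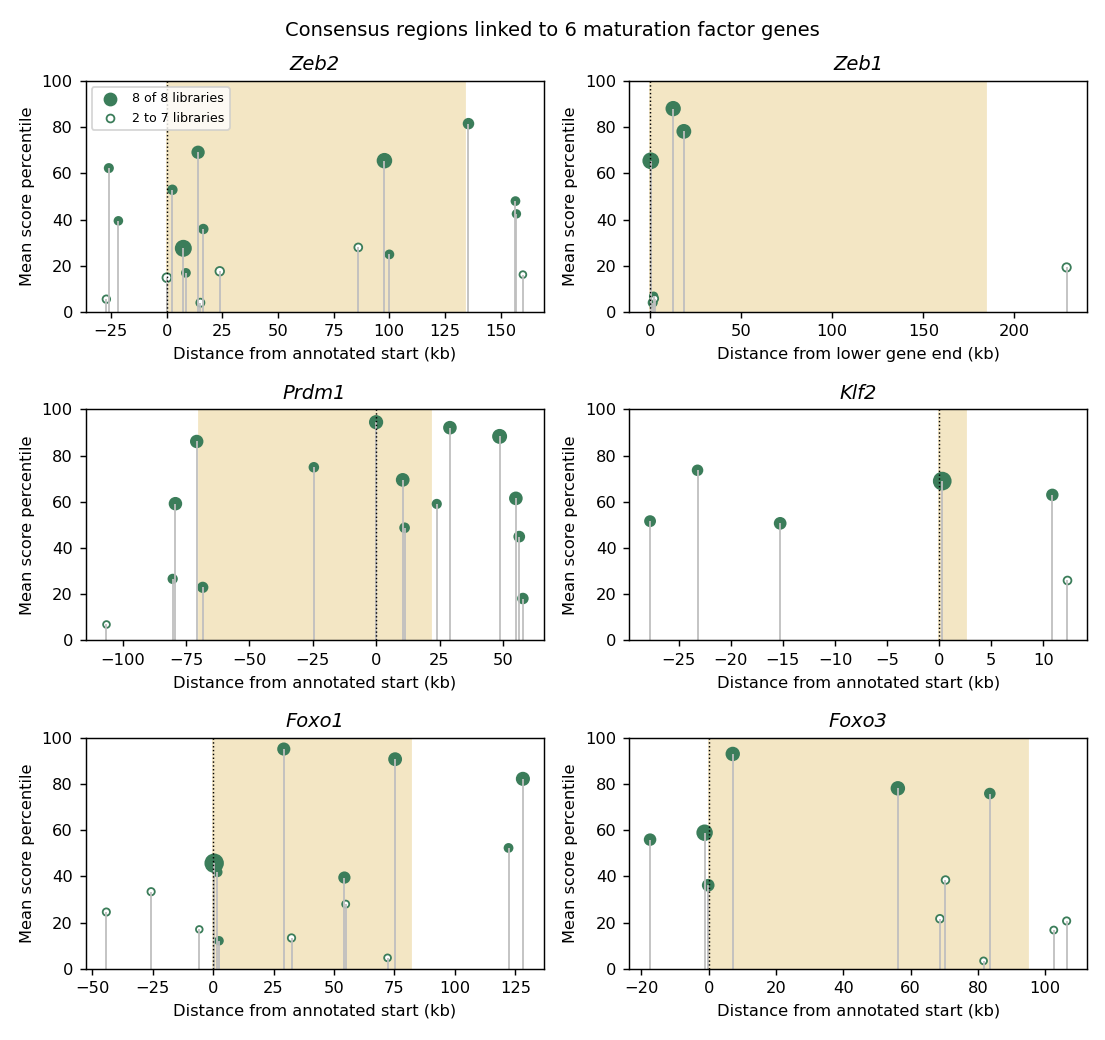
Consensus regions linked to 6 of the factor genes, by the distance of their midpoint from the annotated start (from the lower gene end for Zeb1) in kb on the x axis and the mean score percentile over the libraries that called them on the y axis; filled circles were called in 8 of 8 libraries, open circles in 2 to 7, larger circles are wider regions, and the shaded band is the gene span. The highest regions of Foxo1 (95.2), Prdm1 (94.5) and Foxo3 (93.1) stand above all regions of Zeb2, whose highest is at 81.5.

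Zeb2 (chr2:44983512-45117442, minus strand) had 12 of its 18 regions in all 8 libraries. Its highest region, at chr2:44981583-44982111, lay 1.665 kb beyond the 3′ end of the gene and stood at percentiles of 87.7, 83.9, 84.2 and 80.0 in MUT libraries, against 74.9, 77.3, 86.0 and 78.3 in WT libraries. The groups overlapped there. The next highest, at chr2:45102955-45103622 inside the gene, averaged the 69.1st percentile, followed by a wide region at chr2:45019027-45020164 at the 65.5th. The outermost start, at chr2:45117051-45117534, was weak and not called in MUT 29. Its percentiles were 9.68, 5.34 and 2.74 in the other MUT libraries and 32.4, 23.4, 24.6 and 5.38 in WT libraries, with WT 7 inside the MUT range. The region over the inner start, chr2:45109282-45110545, averaged 1058 bp and the 27.5th percentile and was called in all 8 libraries. A further 3 regions in the Zeb2 gene lay over 50 kb from both ends and were not linked by the rule, 1 of them called in all 8 libraries (chr2:45049271-45049657, mean percentile 33.9).

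Zeb1 (chr18:5591327-5775468) had 7 regions, 5 of them in all 8 libraries. The region at its lower end, chr18:5591154-5592286, averaged 1027 bp and the 65.4th percentile. A region 12.7 kb inside the gene, chr18:5603551-5604471, was higher, with percentiles of 92.0, 86.4, 93.9 and 93.4 in MUT libraries and 83.6, 84.6, 85.5 and 84.8 in WT libraries. This is 1 of the 4 regions without overlap, with MUT higher. Another strong region, at chr18:5609333-5610409, averaged the 78.2nd percentile with overlapping groups. The others were weak, between the 3.99th and the 19.2nd percentile. As in Zeb2, 2 regions deep in the gene, called in 6 libraries each, were over 50 kb from its ends and not linked.

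Prdm1 (chr10:44437174-44528558, minus strand) had 14 of its 15 regions in all 8 libraries and, among factors with more than 1 region, the highest median percentile, 59.2. The region over the annotated start whose promoter is shown above, chr10:44458428-44459154, stood at 94.2, 93.7, 97.1 and 96.2 in MUT libraries and at 93.0, 93.8, 93.4 and 94.7 in WT libraries. The table's gene span reaches further upstream than this start, so the region counts as away from the gene ends. Downstream of the gene, chr10:44429257-44430057 averaged the 92.1st percentile and chr10:44409560-44410545 the 88.3rd. At the upper end of the span, chr10:44529190-44529926 averaged the 86.1st, with 85.4, 86.7, 87.4 and 77.8 in MUT libraries and 88.5, 84.8, 90.1 and 88.5 in WT libraries. The groups overlapped at all 4 of these regions.

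Zfp683 (chr4:134051195-134058941) lies 1790 bp from Crybg2, and under the rule its surroundings went to Crybg2 and Lin28a. If Zfp683 is allowed to take peaks, a choice made after seeing the data, 7 regions are nearest to it, 3 of them in all 8 libraries. The 7 include chr4:134059005-134059220, which was called in WT 6 only and so falls short of the 2 libraries required elsewhere. The highest, chr4:134047630-134048073, lay 3.344 kb from the gene and stood at 87.0, 85.1, 87.1 and 84.3 in MUT libraries and at 84.6, 83.1, 85.0 and 85.1 in WT libraries, with overlapping groups. The others called in all 8 libraries averaged the 59.2nd percentile at chr4:134041436-134042289 and the 44.2nd at chr4:134043035-134043410. The regions over the gene itself were sparse: chr4:134052602-134052823 was called in 2 MUT libraries and chr4:134058253-134058858 in 1 MUT and 1 WT library. Linked length would then be 1827, 2574, 1983 and 1746 bp in MUT libraries and 1565, 2011, 2028 and 1583 bp in WT libraries, with overlapping groups.

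Zbtb32 (chr7:30589680-30602819, minus strand) kept a single region, chr7:30599968-30600390 inside the gene. Its percentiles were 69.9, 83.2, 84.7 and 63.1 in MUT libraries and 71.4, 77.9, 78.9 and 65.3 in WT libraries. The groups overlapped, with the lowest and the highest value both in MUT. A far stronger region at the lower end of the gene, chr7:30588306-30589761, averaged 1341 bp and the 89.7th percentile but was nearest to Kmt2b and so was not counted for Zbtb32.

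Klf2 (chr8:72319062-72321654, plus strand) is a gene of 2.593 kb, and 1 region covered its promoter and part of its body. That region, chr8:72318646-72320085, averaged 1313 bp, and its percentiles were 67.0, 66.1, 64.6 and 66.3 in MUT libraries and 71.4, 69.3, 75.0 and 72.1 in WT libraries. This is another of the 4 regions without overlap, with MUT lower, while the widths overlapped: 1241, 1287, 1390 and 1365 bp in MUT libraries and 1384, 1331, 1259 and 1248 bp in WT libraries. The highest region of Klf2 lay 23.2 kb upstream at chr8:72295624-72296094, at a mean percentile of 73.7, and 2 more stood upstream at chr8:72291056-72291542 (51.6) and chr8:72303457-72304136 (50.7). Beyond the 3′ end, chr8:72329637-72330246 averaged the 63.0th percentile. Its weak neighbour chr8:72331125-72331503 was called in all 4 MUT libraries, at 34.7, 31.5, 29.6 and 30.0, and in 3 WT libraries, at 20.4, 19.0 and 19.2, but not in WT 7.

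Foxo1 (chr3:52268337-52350109, plus strand) had its strongest region 29.2 kb into the gene rather than at its start. The region chr3:52297245-52297859 had percentiles of 97.4, 92.7, 94.9 and 95.7 in MUT libraries and 95.8, 94.3, 94.2 and 96.5 in WT libraries. A second, at chr3:52343250-52343978 near the 3′ end, averaged the 90.8th percentile. The promoter region, chr3:52267932-52269570, was the widest of all 72 at a mean of 1428 bp but stood only at 37.0, 44.9, 40.5 and 37.3 in MUT libraries and at 52.2, 55.1, 44.6 and 54.2 in WT libraries. The groups overlapped, with MUT 27 just above WT 6. A small region 2.422 kb downstream of the start, chr3:52270603-52270914, stood at 19.6, 18.5, 14.3 and 18.4 in MUT libraries and at 4.96, 5.41, 8.77 and 7.07 in WT libraries, also without overlap. Its width did not pass the test (limma, adjusted p = 0.554).

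Foxo3 (chr10:42181845-42276695, minus strand) also had its strongest region inside the gene, 7.124 kb from the start at chr10:42269181-42269962. Its percentiles were 94.3, 92.8, 93.8 and 92.8 in MUT libraries and 92.2, 90.1, 94.2 and 94.4 in WT libraries, with overlapping groups. The region over the GC-rich promoter shown above, chr10:42276567-42277157, averaged only the 36.2nd percentile, and a wider one just upstream, chr10:42277378-42278485, the 59.0th. This wider region stood at 56.8, 59.0, 54.4 and 55.6 in MUT libraries and at 60.1, 61.6, 60.5 and 63.7 in WT libraries, the last of the 4 regions without overlap. Further into the gene, chr10:42220029-42220974 averaged the 78.2nd and chr10:42192916-42193428 the 75.9th. Of its 11 regions 6 were called in all 8 libraries, the lowest share among the 7 factors with regions.

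Between genotypes, the total peak length linked to each factor was compared. It was 6584, 6798, 6100 and 5787 bp for Zeb2 in MUT libraries and 6216, 7126, 5711 and 6073 bp in WT libraries, so WT held both the highest and the lowest value. Zeb1 had 3645, 3791, 3823 and 3310 bp in MUT libraries and 3707, 3255, 3572 and 3484 bp in WT libraries. Prdm1 had 7431, 7938, 7504 and 7266 bp in MUT libraries and 7625, 7165, 7417 and 7035 bp in WT libraries, the most length of the 8 factors. The groups overlapped for all 3. Foxo1 had 5453, 6697, 6126 and 5243 bp in MUT libraries and 5529, 5689, 5756 and 5402 bp in WT libraries. Zbtb32 had 366, 368, 378 and 351 bp in MUT libraries and 361, 390, 363 and 338 bp in WT libraries. These groups overlapped too, with MUT spread more widely than WT for Foxo1.

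Klf2 and Foxo3 came closest to a difference. Klf2 had 3434, 3467, 3944 and 3381 bp in MUT libraries and 3169, 3151, 3093 and 3327 bp in WT libraries, so that every MUT library lay above every WT library. Foxo3 had 5271, 5551, 4977 and 4571 bp in MUT libraries and 4427, 4451, 4725 and 4600 bp in WT libraries, with only MUT 29 inside the WT range. The lists differ in size, so lengths were scaled to the same total per library before testing. After scaling the groups overlapped for all 7 factors with peaks, Klf2 among them, whereas 6.76% of the 14256 genes tested did not overlap. The share of genes without overlap before scaling was not determined.

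**Figure D2:**
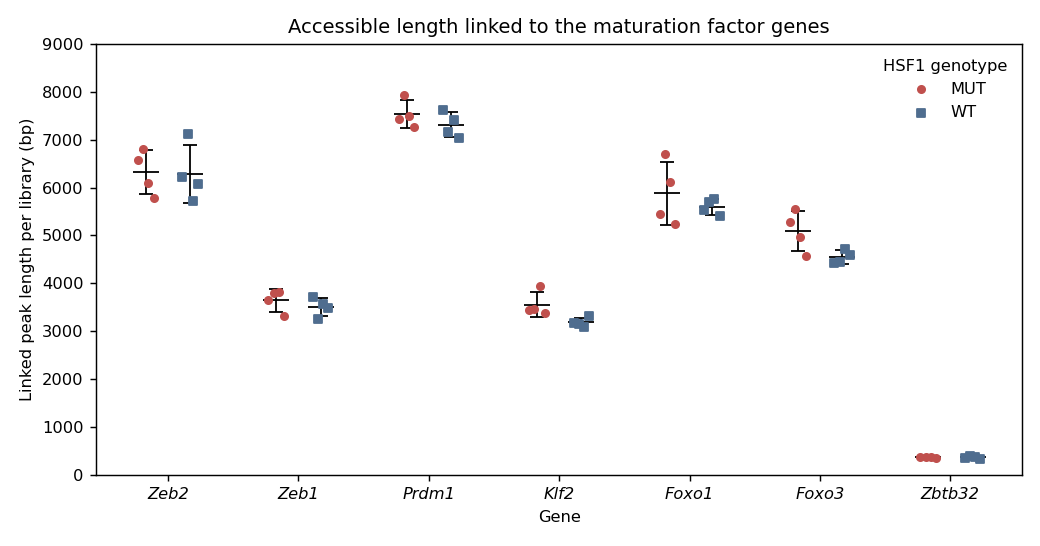
Linked peak length per library in bp, not scaled (y axis), for the 7 factors with peaks (x axis), with MUT libraries as red circles and WT libraries as blue squares; the long line is the mean and the bars are 1 SD (n = 4 each). The 4 MUT values of Klf2 (3381 to 3944 bp) lie above its WT values (3093 to 3327 bp), and the groups overlap for the other factors. After scaling the groups overlap for Klf2 as well.

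No factor passed the test. On scaled lengths, 0 of the 7 factors reached an adjusted p under 0.05 with limma, against 0.673% of all genes (0.442% higher and 0.231% lower in MUT). Without adjustment 1 factor, Foxo3, and 11.2% of all genes were under 0.05. Here and below, means and SDs of linked length in bp were taken before scaling. Log2 differences of linked length, with their SEs, intervals and p-values, were taken after scaling unless stated otherwise. Foxo3 averaged 5093 ± 419 bp in MUT and 4551 ± 139 bp in WT (SD, n = 4 each), a log2 difference of 0.11 (SE 0.045, 95% interval 0.012 to 0.22; limma, adjusted p = 0.39). Klf2 averaged 3557 ± 261 bp in MUT and 3185 ± 100 bp in WT, a log2 difference of 0.11 (SE 0.060, 95% interval -0.026 to 0.25; limma, adjusted p = 0.557). The other 5 lay close to 0: -0.0285 for Zeb2 (95% interval -0.17 to 0.11), 0.0145 for Zeb1 (-0.096 to 0.12), 0.0039 for Prdm1 (-0.073 to 0.080), 0.0252 for Foxo1 (-0.063 to 0.11) and -0.0175 for Zbtb32 (-0.19 to 0.15). The signs for Zeb2 and Zbtb32 turned positive without scaling. The median of the 7 was 0.0145, and that of all genes -0.0193. These values are on the log2(bp + 200) scale, which shrinks the change of genes with few linked bp.

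**Figure D3:**
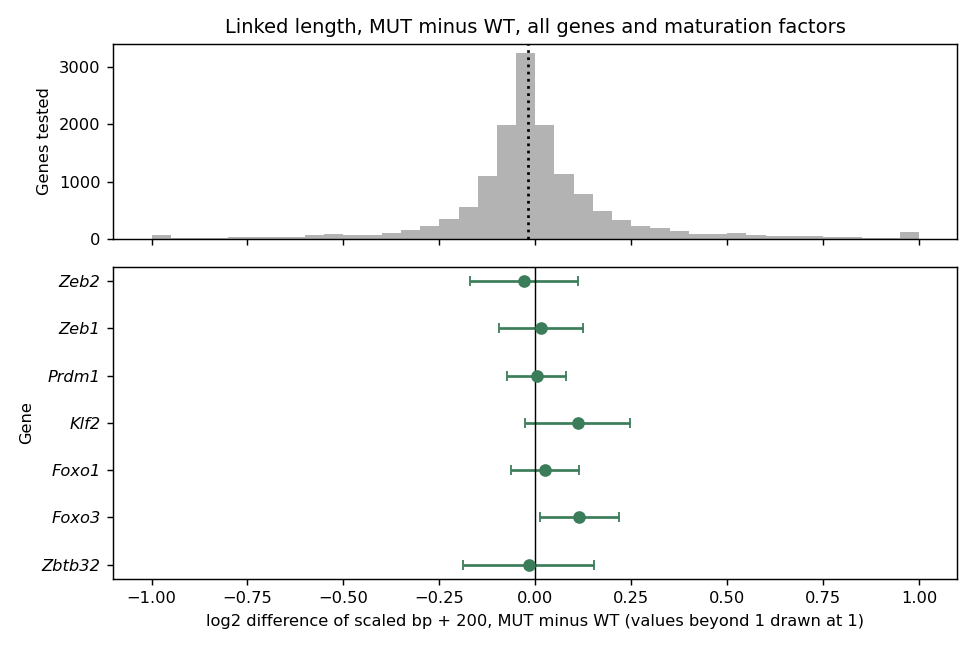
MUT minus WT log2 difference of scaled linked length, as a histogram of all 14256 genes (upper panel, dotted line at the median of -0.0193) and for the 7 factors with 95% intervals from limma (lower panel); values beyond 1 on the log2 axis are drawn at 1. The intervals of 6 factors include 0, and that of Foxo3 runs from 0.012 to 0.22.

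No single region of the factors passed the test of width either. Of the 51 factor regions called in all 8 libraries, 0 passed the width test (limma, adjusted p under 0.05), against 0.0783% of 34461 such regions, and 4 (7.84%) were under 0.05 unadjusted, against 9.69%. The lowest was the Foxo1 promoter region, which was 1246, 1495, 1417 and 1124 bp wide in MUT libraries and 1616, 1453, 1545 and 1525 bp wide in WT libraries. It averaged 1321 ± 167 bp in MUT and 1535 ± 67.0 bp in WT (SD, n = 4 each), a log2 difference of -0.25 (SE 0.062; limma, adjusted p = 0.279). Once the library medians were subtracted its groups no longer overlapped, the single such region of the 51 (1.96%, against 5.99% of all). The other 3 were wider in MUT libraries on average: chr8:72303457-72304136 at Klf2 by 0.37 (limma, adjusted p = 0.444), chr10:44526921-44527434 at Prdm1 by 0.31 (limma, adjusted p = 0.484) and chr2:45108566-45108936 at Zeb2 by 0.24 (limma, adjusted p = 0.468). Over the 51 regions the log2 difference ran from -0.31 to 0.37 with a median of 0.0034, and 27 were above 0.

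No region of the 8 factors was called in 1 genotype only, that is in all 4 libraries of one and none of the other, against 0.761% of all consensus regions. The 72 regions included 21 that were not called in all 8 libraries, with a median percentile of 17.1, whereas the 51 called in every library had 59.1. Of these, 14 were called in more MUT than WT libraries (19.4% of the 72, against 14.9% of all consensus regions), 3 in more WT than MUT libraries (4.17%, against 9.97%) and 4 in equal numbers. The MUT lists also held more peaks of these genes, with 71, 72, 72 and 68 against 61, 67, 65 and 62 in WT lists. The lists themselves differ in size, with 44333 to 49627 peaks in MUT lists and 42695 to 46102 in WT lists, ranges that overlap. As shares of their lists, the groups did not separate. MUT 27, with 72 of 49627, lay just below WT 5 (67 of 46102) and WT 7 (62 of 42695). How often other sets of genes separate in such raw counts was not determined, and no test was made of this. A further 9 regions, called in 1 library only, are not among the 72: 6 of them in a MUT and 3 in a WT library. In the whole series 3543 of 5902 such regions were in a MUT library. Both regions called in all 4 MUT libraries and 1 WT library were at Foxo3, which is 2.78% of the 72, against 1.49% of all consensus regions. One, chr10:42174004-42174325, lay beyond the 3′ end, at 17.2, 30.1, 18.9 and 7.75 in MUT libraries and at 9.90 in WT 6. The other, chr10:42194894-42195158 inside the gene, was at 1.35, 2.93, 2.55 and 1.82 in MUT libraries and at 8.51 in WT 4. Fisher's exact test gave an unadjusted p of 0.143 for each, and the smallest p that 4 libraries against 4 allow, 0.0286, was reached by 381 regions of the series. After adjustment over all consensus regions 0 passed.

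**Figure D4:**
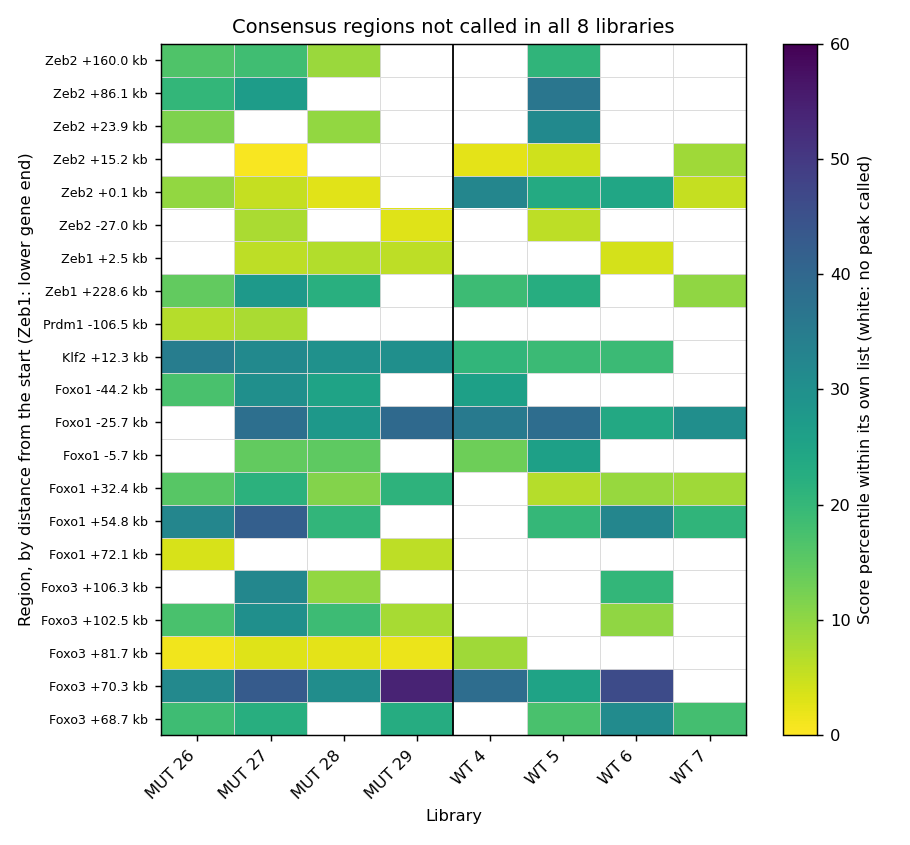
Score percentile within its own list (color, white where no peak was called) of the 21 factor regions not called in all 8 libraries (rows, named by gene and distance from the start, or from the lower gene end for Zeb1) in the 4 MUT and 4 WT libraries (columns). Most rows are below the 40th percentile, and 14 of them have more MUT than WT calls.

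Of the genes that work with these factors, 0 passed the length test in each of 6 lists (limma, adjusted p under 0.05). The numbers under 0.05 without adjustment were 1 of 11 terminal maturation genes, 1 of 12 immature NK genes, 3 of 13 FOXO and KLF2 target and trafficking genes, 1 of 9 genes acting on FOXO, 1 of 12 partner lineage factors and 2 of 12 relatives, against the 11.2% of all genes given above. The 11 terminal maturation genes, among them Itgam (CD11b), Klrg1 and S1pr5, had a median log2 difference of 0.0193, and the smallest p was that of Rap1gap2, a GTPase regulator, with 2240 ± 578 bp in MUT and 1322 ± 321 bp in WT (log2 0.64; limma, adjusted p = 0.283). The 12 genes of immature NK cells had a median of 0.12, with the smallest p at Emb, which encodes the adhesion protein embigin (log2 0.13; limma, adjusted p = 0.307). Emb and Ly6e each had a region called in all 4 MUT and no WT library, at chr13:117241182-117241534 and chr15:74924255-74924518, both weak. Over all consensus regions 0.583% were MUT-only in this way and 0.178% WT-only. The 13 FOXO and KLF2 target and trafficking genes had a median of 0.0692. Of these Ccr7, the lymph node homing receptor, had 5054 ± 564 bp in MUT and 3904 ± 731 bp in WT (log2 0.33; limma, adjusted p = 0.302), and S1pr1 7203 ± 672 bp in MUT and 6497 ± 304 bp in WT (limma, adjusted p = 0.417). S1pr1 was named beside Ccr7 after its values were seen, as the KLF2 target in the background above.

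The 9 genes of kinases and phosphatases that act on FOXO proteins had a median of 0.0048, with the smallest p at Sgk1 (log2 0.15; limma, adjusted p = 0.358). Pik3r1, a regulatory subunit of PI3 kinase, had a region called in MUT libraries only (chr13:101713770-101714053), and Pik3cd, the catalytic p110 delta subunit, one called in WT libraries only (chr4:149701507-149701736). The 12 partner lineage factors had a median of 0.0007, and Eomes, which acts with T-bet in NK cells, the smallest p (log2 -0.10; limma, adjusted p = 0.378). The 12 relatives of the members had a median of -0.0126. Among them Zbtb20, a BTB zinc finger gene like Zbtb32, had 2411 ± 117 bp in MUT and 2699 ± 107 bp in WT (log2 -0.19; limma, adjusted p = 0.0981). Of the 10 NK markers 1 passed, against 0.673% of all genes, and 4 were under 0.05 without adjustment, against 11.2%. Klrb1c, the gene of NK1.1, was lower, with 5360 ± 213 bp in MUT and 6347 ± 259 bp in WT (log2 -0.27, SE 0.041; limma, adjusted p = 0.0314). That call was lost without scaling (log2 -0.24; limma, adjusted p = 0.0744), with linking up to 10 kb (log2 -0.19; adjusted p = 0.43) and when any 1 library other than MUT 26 was left out (log2 -0.29 to -0.25; adjusted p from 0.0543 to 0.0929), and its sign turned with the upper 50% of each list (log2 0.55). Klrb1c also had a region called in WT libraries only, at chr6:128753904-128754181. Ncr1, which encodes the activating receptor NKp46, did not pass, with 3448 ± 377 bp in MUT and 2855 ± 198 bp in WT (log2 0.22; limma, adjusted p = 0.277).

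Across the 8 libraries, and as a description only, the gene of 12593 whose scaled length moved most like each factor's was Lpp for Zeb2 (Pearson's r = 0.96), Neto2 for Zeb1 (0.94), Tnpo3 for Prdm1 (0.97), Smim4 for Klf2 (0.96), Mcu for Foxo1 (0.99), Top2a for Foxo3 (0.96) and Gpx8 for Zbtb32 (0.97). Each r is the highest of 12593 over only 8 libraries, so it is high by selection and does not show a real likeness. All these values share the same 8 lists and their sizes, and no p is given.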

How the data were processed

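The data were 8 ATAC-seq peak lists, 1 per mouse and not pooled, from 4 MUT and 4 WT mice. For every peak a list gives its coordinates, a name and a score. The score is a positive number of the authors' own in the deposited lists, in a column without a heading. Not given in the sources used here are its meaning, the peak caller and threshold, and whether reads were shifted for the transposase. The submitters' processing notes name Bowtie2 2.3.4.1, Trimmomatic, DiffBind 3.0.12 and DESeq2 without saying what each did, and the build mm10 (GRCm38). The lists give no counts, so depth and the precision it would set are unknown.

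From these lists, scores were ranked within each list as percentiles. Peaks sharing at least 1 bp across libraries formed a region, and regions with a peak in at least 2 libraries were kept. Each peak or region was linked by its midpoint to the nearest end of 21883 protein-coding genes (RefSeq, GRCm38.p6), up to 50 kb away. The table gives no exons. All 8 factor names were in the RefSeq table, Zfp683 as a pseudogene and so not among the 21883. Linked length per gene was summed, scaled to the median library total and tested with limma 3.58.1 (trend) on log2(bp + 200) over the 14256 genes for which 2 libraries or more had one. Widths of regions in all 8 libraries were tested with limma on log2 bp after subtracting library medians. Calls per region were compared by a two-sided Fisher's exact test. P-values were adjusted by Benjamini-Hochberg, with a threshold of 0.05, and the fits were tested on simulated data (R 4.3.3, Python 3.11.15, scipy 1.17.1).

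The factors, the gene lists and the rule for named genes were chosen with earlier results of these data known. The rule names the 8 factors, for each the highest region at a gene end and away from it, list genes that passed, had a region in 1 genotype only or had the smallest p of their list, and the gene most like each factor. Other regions and genes were named after their values were seen. Alternatives covered the pseudocount, filter, linking distance, scaling, number of peaks, score threshold, merging and each library left out. Zfp683 taking peaks was added later. Values of 1 list gene are not reported here. Sequences and motif positions are from RefSeq windows on the same build.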

Additional observations from a re-analysis of the deposited data

Results flagged for a closer look

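Among 38 groups of 4 libraries checked for a value far from the rest, 1 stood out. The groups were the linked lengths of the factors and the widths of the regions named by rule and called in all 8 libraries. The value was the linked length of Klf2 in MUT replicate 28, at 3944 bp, against 3434, 3467 and 3381 bp in the other MUT libraries and 3093 to 3327 bp in WT libraries. Other regions described above were not checked, among them chr2:45102955-45103622 at Zeb2. It was 649, 642, 655 and 388 bp wide in WT libraries. Chance flags about 1 in 20 such groups.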

How the results depend on the processing

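No factor passed the length test under any alternative (119 values for 7 factors; lowest adjusted p 0.318 with limma). In 105 the sign was that of the reported value, and 14 took the other sign. Those were, with no scaling, Zeb2 (0.0098) and Zbtb32 (0.0076), with linking up to 10 kb, Foxo1 (-0.0384), and with the upper 50% of each list by score, Zeb2 (0.12), Zeb1 (-0.205), Foxo1 (-0.55) and Foxo3 (-0.0042). The remaining ones came from leaving out 1 library, where the log2 differences ran from -0.0707 to 0.0229 for Zeb2, -0.0273 to 0.0346 for Zeb1, -0.0157 to 0.0177 for Prdm1, -0.0009 to 0.0475 for Foxo1 and -0.0299 to 0.0047 for Zbtb32. Klf2 (0.0731 to 0.16) and Foxo3 (0.0871 to 0.13) kept their sign there. Widths of the 4 named regions kept their sign and stayed above the threshold.
The 96 genes past the threshold became 41 with linking up to 10 kb and 22 to 79 with 1 library left out (29 without MUT 26, 45 without MUT 27, 35 without MUT 28, 24 without WT 4, 22 without WT 5 and 48 without WT 7). Their split of 63 higher and 33 lower became 63 and 19 without scaling, and 67 and 54 with equal numbers of peaks. The 27 regions past the width threshold became 15 with the upper 50% of each list and 18 to 47 with 1 library left out. The 292 MUT-only regions became 346 to 522, and the 89 WT-only regions 102 to 198, with 1 library left out, where a region needs fewer calls to qualify; with equal numbers of peaks the WT-only count was 138. The 72 factor regions became 37 with the upper 50% of each list and 28 with linking up to 10 kb, of which 26 and 22 were in all 8 libraries, and 70 to 73 with 1 library left out. Without WT 4 or without WT 6, 1 Foxo3 region became MUT-only. With the upper 50% of each list the signs of Emb (-0.0639), Eomes (0.28) and Klrb1c (0.55) turned. Except where fewer peaks or libraries enter by construction, the cause was not tested.
No paired analysis was possible because the MUT and WT mice share no replicate numbers. P-values measure the spread between 4 mice of each genotype. A factor whose interval includes 0 is not shown to be alike in both, and read depth, which sets whether a weak peak is called, is unknown.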
